A study of Mus musculus with 58 samples.

Results

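The effect of repeated mild head injury on the somatosensory cortex of female mice that received no drug was examined at a late time after the injuries. The libraries were those whose titles begin F_Chronic_5xCHI+ vehicle (12 injured) or F_Chronic_sham+ vehicle (9 sham), 21 of the 58 libraries in the series. All 21 came from C57BL/6J mice aged 2 to 4 months and given physiological saline as the vehicle. Injured mice received 5 closed head injuries, 1 a day, and sham mice 5 sham procedures; saline was given 30 min after each. The remaining libraries come from mice of the other sex or from mice given the p38 MAPK inhibitor SB239063 (SB) at 20 mg/kg. The late time covers about 18 and 34 days, and the labels do not say which mouse was taken on which day. Each label names 1 of 4 cohorts: F1 held 3 injured and 2 sham mice, F2 held 2 and 1, F3 held 5 and 4, and F4 held 2 and 2. The labels do not state what a cohort shares, and each library was taken as a separate mouse. Should several come from 1 mouse, part of the spread behind the p-values would be technical.

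Closed head injury strikes the intact skull and strains axons, vessels and glia without a penetrating wound. Astrocytes can respond by raising intermediate filament and complement genes, and microglia, the resident macrophages of the brain, by leaving their surveying state. In the cortex, layered excitatory neurons are balanced by inhibitory interneurons, and oligodendrocytes wrap their axons in myelin.

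The deposited table holds read counts for 9636 genes, and the 21 libraries held 28708144 to 49158277 counts over these genes (median 33874709.5 in injured and 33265834 in sham libraries). Levels are given as CPM (counts of a gene relative to the library total, on a fixed scale) scaled between libraries by TMM. The labelled tissue was checked against its markers: the excitatory neuron transporter gene Slc17a7 lay between 1114 and 1553 CPM and Camk2a, the calcium/calmodulin kinase gene of excitatory neurons, between 1697 and 4571 CPM in every library. Of 15 listed choroid plexus and ependyma genes and 18 listed blood and leukocyte genes, 0 were measured. The table holds no gene of low count in any library, so a gene present in only some libraries would be missing from it. The absence of these genes therefore cannot show whether a library held such tissue. Of the variance between the 21 libraries, principal component 1 took 40.4%; the cohort accounted for 53.4% of that component and injury beyond the cohort for 0.0185%.

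The libraries that stood furthest apart in single genes were all in the sham group, against which injury is measured. A search for genes in which 1 library lay at least 2-fold beyond all 20 others returned 46 genes, and all 46 belonged to sham replicates 1, 4 and 7. Sham replicate 1, the single sham mouse of cohort F2, was above all others in 10 of these genes, among them the myelin genes Mbp, Cnp, Cldn11 and Fa2h, and below all others in 25. The latter included Calb1, the calcium buffer calbindin of upper layer and striatal neurons. Sham replicate 4, from cohort F3, was above all others in 10 genes: Ace, Enpp2, Col9a3, Sulf1, Cgnl1, Trpm3, Slc4a2, Slc31a1, Tcn2 and Igfbp2. Several of these, such as Enpp2 (the lysophospholipase autotaxin), Trpm3 (a cation channel) and Slc4a2 (an anion exchanger), are known for strong expression in the choroid plexus. Sham replicate 7, also from F3, was 2-fold apart in 1 gene, Col11a1, but was the lowest of 21 libraries in 1420 of 9636 genes and the highest in 1291. For sham replicate 1 these counts were 1332 and 1606, but for sham replicate 4 only 418 and 437. Other libraries were also often at an end. The counts were 989 and 822 for sham replicate 9 and 647 and 812 for sham replicate 5. Among injured libraries they were 658 and 708 for replicate 3 and 585 and 719 for replicate 9. The 46 genes and the 3 sham libraries that hold them were singled out after their values were seen. Their part in the results below was not tested.

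No gene passed the test of injury against sham. By edgeR's quasi-likelihood test with the cohort as a block, 0 of 9636 genes (0%) had a Benjamini-Hochberg adjusted p under 0.05. At an unadjusted p under 0.05 there were 231 genes (2.4%), of which 150 (1.56%) were higher and 81 (0.841%) lower in injured mice. In no gene (0%) did the 12 injured and 9 sham values fail to overlap. For 9585 genes (99.5%) the 95% interval did not reach a 1.5-fold change in either direction. DESeq2 gave 2 genes past the adjusted threshold, Pcdh8 and Fxyd6, and 257 past the unadjusted one, and limma voom with quality weights gave 0 and 703. Leaving out sham replicate 1 raised the unadjusted count by edgeR to 431, leaving out sham replicate 7 to 448, and leaving out both, an alternative chosen after seeing the data, to 936 (9.71%), of which 497 (5.16%) were higher and 439 (4.56%) lower, still with 0 adjusted. The share of all genes with a fold change above 0 was 45.8% with all libraries and 48.9% without both.

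The gene of smallest p was Pcdh8, which encodes a protocadherin that takes part in activity-dependent adhesion at synapses. Its level was 17.6, 31.5 and 51.0 CPM (lowest, median, highest) in injured and 15.8, 21.8 and 30.0 CPM in sham libraries. The groups overlapped, and 11 of 12 injured libraries lay above the sham median. Its log2 fold change was 0.57 ± 0.12 (SE; 95% interval 0.32 to 0.81), with p = 8.15e-05 and an adjusted p of 0.465 by edgeR. DESeq2, with a similar fold change, gave an adjusted p of 0.0179. Within the cohorts the fold change was 0.66 in F1, 0.60 in F2, 0.71 in F3 and 0.13 in F4. It stayed between 0.49 and 0.61 when each library was left out in turn.

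Fxyd6, which encodes a regulator of the sodium pump, came next. Its level was 78.5, 99.3 and 126 CPM in injured and 65.5, 76.6 and 124 CPM in sham libraries, and all 12 injured libraries lay above the sham median. The sham mice above 100 CPM were both of cohort F4, where the difference was 0.05, against 0.28, 0.43 and 0.42 in F1, F2 and F3. The log2 fold change over all 21 libraries was 0.32 ± 0.067 (adjusted p = 0.465 by edgeR and 0.0253 by DESeq2). Cpne4, a calcium-dependent membrane-binding copine, stood at 30.9, 44.0 and 67.7 CPM in injured and 18.2, 36.0 and 46.7 CPM in sham libraries, a log2 fold change of 0.41 ± 0.096. Its lowest value was that of sham replicate 1, and cohort F4 went the other way at -0.13.

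**Figure D1:**
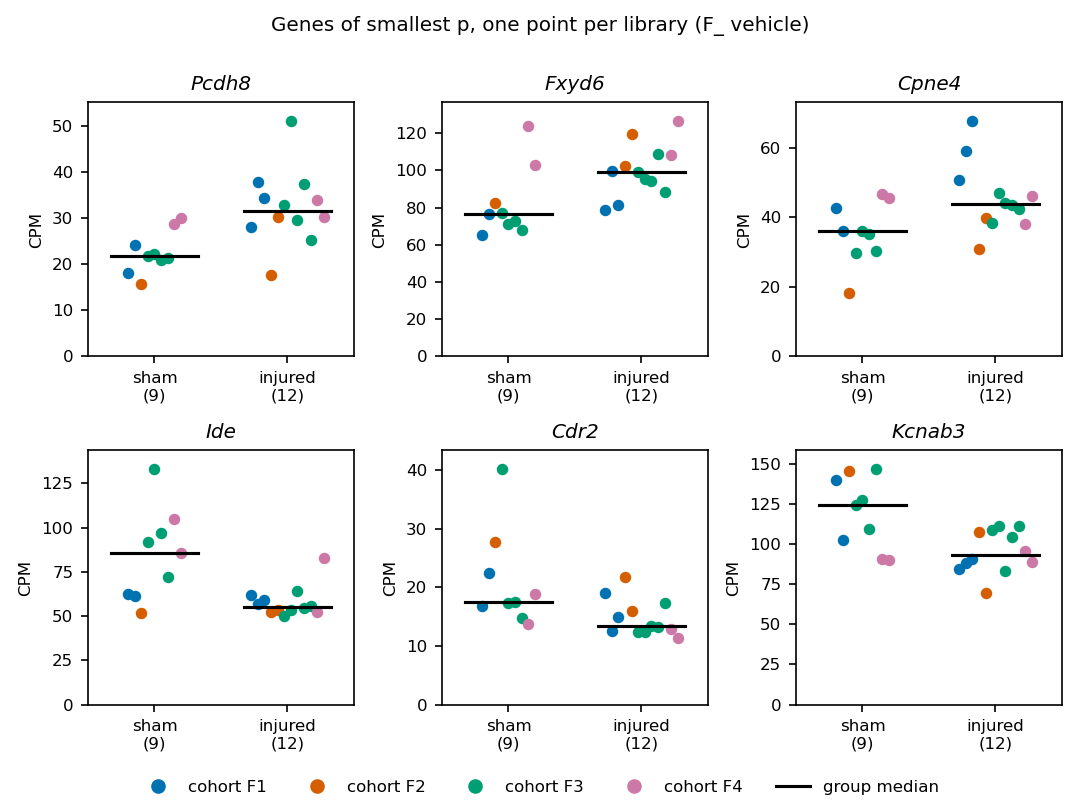
Level (CPM, linear axis from 0) of Pcdh8, Fxyd6, Cpne4, Ide, Cdr2 and Kcnab3 in each of the 9 sham and 12 injured libraries, coloured by cohort, with the group median as a line. The groups overlap for all 6 genes, and for Ide the sham libraries of F1 and F2 lie between 51.9 and 62.3 CPM while those of F3 and F4 run from 72.1 to 133 CPM.

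The other 9 of the 12 higher genes of smallest p had log2 fold changes between 0.21 and 0.38 and included Cdh13, Ydjc, Ccn3, Hrk, Marcksl1, Zdhhc22, Ankra2 and Pcdh19. Hrk, which encodes a pro-apoptotic BH3-only protein of neurons, ran from 27.0 to 41.8 CPM in injured and from 17.0 to 39.3 CPM in sham libraries. Marcksl1, a substrate of protein kinase C that binds actin, was above the sham median in 12 of 12 injured libraries. None of the 9 passed by edgeR after adjustment. Cdh13 and Pcdh19, like Pcdh8, belong to the cadherin superfamily. Of its 23 listed and measured members 16 were higher and 7 lower, with a median of 0.077 against -0.0059 over all genes. The largest of these fold changes, 0.57, was that of Pcdh8, which was picked by its p in these same libraries. Nothing is read from this split. Without sham replicates 1 and 7 that split was 11 and 12, with a median of -0.014.

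Among the genes that were lower, Ide had the smallest p. It encodes the insulin-degrading enzyme, a protease that also cleaves amyloid beta. Its level was 50.0, 55.0 and 83.1 CPM in injured and 51.9, 85.8 and 133 CPM in sham libraries, and 0 of 12 injured libraries lay above the sham median. The fitted difference varied between cohorts, although not past the adjusted threshold. In F1 and F2 it was -0.06 and 0.02, and all libraries of those cohorts, sham and injured, lay between 51.9 and 62.3 CPM. In F3 and F4 it was -0.82 and -0.50, and the sham libraries there ran from 72.1 to 133 CPM. Over all cohorts the log2 fold change was -0.48 ± 0.12 (p = 4.81e-04 by edgeR). The test of the difference between cohorts gave an adjusted p of 0.386 for this gene.

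Cdr2, which encodes a cytoplasmic protein known as an autoantigen in paraneoplastic cerebellar degeneration, stood at 11.4, 13.3 and 21.7 CPM in injured and 13.7, 17.6 and 40.2 CPM in sham libraries. It was lower in injured mice of 4 of 4 cohorts, between -0.34 and -0.71. The sham value of 40.2 CPM was that of replicate 4, and without that library the log2 fold change moved from -0.55 ± 0.15 to -0.36. Kcnab3, a beta subunit of voltage-gated potassium channels, stood at 69.6, 93.3 and 112 CPM in injured and 90.3, 124 and 147 CPM in sham libraries. Its log2 fold change was -0.33 ± 0.089, and 0 of 12 injured libraries lay above the sham median. In cohort F4 the Kcnab3 difference was 0.03.

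The remaining 9 lower genes, Aldh1a1, Ccdc43, Fbxo32, Rpf2, Sema7a, Pigp, Vamp1, Cavin2 and Jdp2, had log2 fold changes between -0.26 and -0.17. Aldh1a1 makes retinoic acid from retinaldehyde, Fbxo32 is a muscle-atrophy ubiquitin ligase, and Vamp1 is a vesicle fusion protein of fast-spiking neurons. Vamp1 ran from 187 to 269 CPM in injured and from 187 to 344 CPM in sham libraries, and its fold change of -0.19 was -0.12 without sham replicate 1. Of the 12 higher genes 6 were higher in 4 of 4 cohorts, and of the 12 lower genes 6 were lower in 4 of 4. Over all genes 295 (3.06%) were higher and 346 (3.59%) lower in 4 of 4 cohorts. The 24 genes were picked from the same libraries, so nothing is read from this.

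The same 24 genes were then read in other mice. The other sex had 8 injured and 5 sham vehicle libraries, which were fitted together with the 21 libraries of this comparison. The spread was estimated over both sexes, so the standard errors and p-values of that sex are not independent of this comparison. In that sex 2 of the 12 higher genes were also higher and 3 of the 12 lower genes also lower. Of all genes 51% were higher there. Pcdh8 was at -0.18 ± 0.19 and Fxyd6 at -0.09 ± 0.12 in that sex, Ydjc at -0.31 ± 0.14 and Fbxo32 at 0.42 ± 0.13. By edgeR 0 genes passed for injury in that sex after adjustment, and 244 (2.53%) had an unadjusted p under 0.05. The difference of the injury effect between the sexes had an adjusted p under 0.05 in 0 genes (0%) by edgeR, DESeq2 or limma voom, and an unadjusted one by edgeR in 454 (4.71%). For Pcdh8 that difference was -0.75 ± 0.23 (adjusted p = 0.904), and it contains the value by which the gene was chosen. The values for female mice given SB, 11 injured and 3 sham libraries, also come from a shared fit. They were estimated over 35 female libraries, which include the 21 used here, and the 3 SB sham mice belong to F1 and F2 only. In that fit 10 of the 12 higher genes were higher and 9 of the 12 lower genes lower, while 51.4% of all genes were higher, and nothing is read from these counts. The median was 0.065 for the higher set and -0.099 for the lower set, against 0.29 and -0.23 in vehicle mice. The genes were chosen by their values in vehicle mice, which favours large ones there, so nothing is read from the smaller sizes. Of the 24 genes 0 had an unadjusted p under 0.05 in the same direction there, against 36 of all genes (0.374%) in either.

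**Figure D2:**
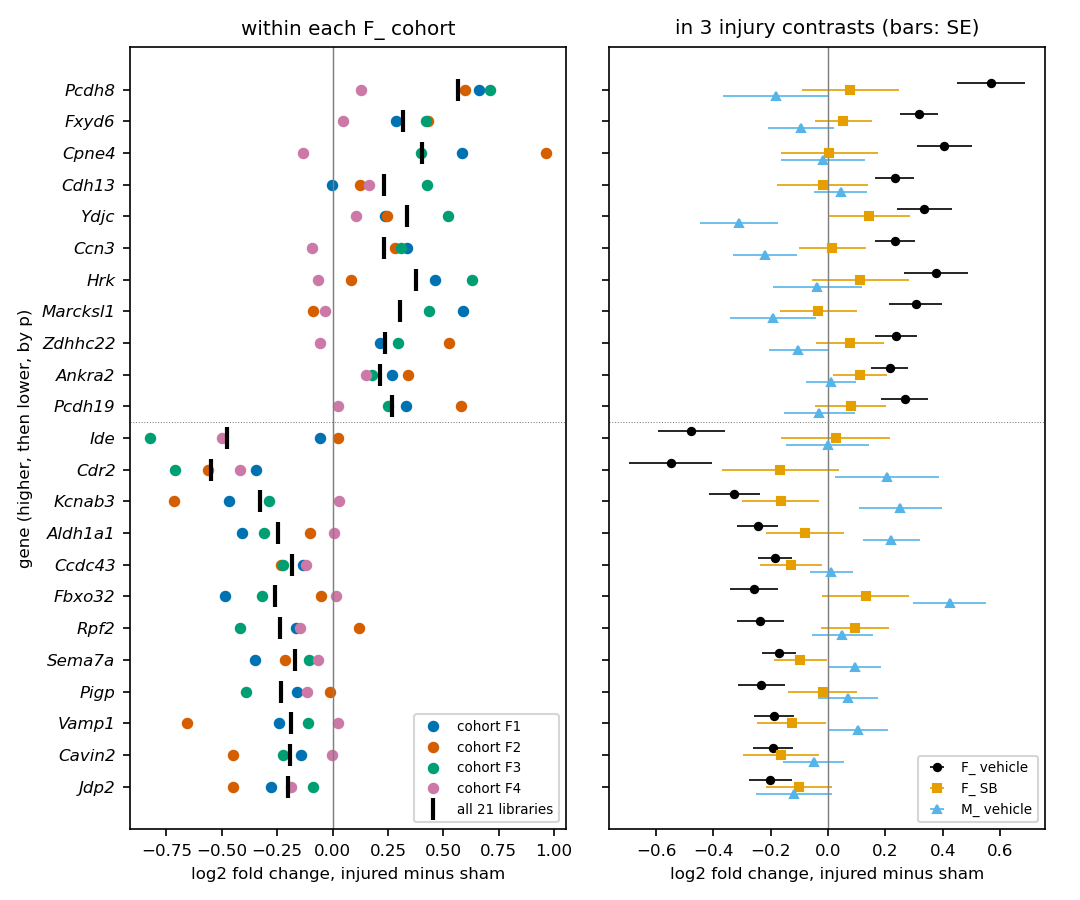
Log2 fold change, injured minus sham, of 11 of the 12 higher genes and the 12 lower genes of smallest p: left, within each cohort (points) and over all 21 libraries (bars); right, in F_ vehicle, F_ SB and M_ vehicle mice with standard errors. Cohort F4 lies nearest 0 or beyond it for most of the higher genes, and the M_ vehicle points lie on the opposite side of 0 from the F_ vehicle points for 9 of the 11 higher genes plotted.

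Astrocyte and complement genes were the glial genes with the smallest p. Of 21 listed reactive astrocyte genes 6 were measured, and 5 were higher and 1 lower, with a median of 0.055. Without sham replicate 1 that split was 3 and 3, and without sham replicates 1 and 7 it was 4 and 2 (median 0.10). With 1 library left out the median ran from 0.025 without injured replicate 8 to 0.13 without sham replicate 7. Gfap, the intermediate filament of astrocytes, stood at 153, 184 and 269 CPM in injured and 126, 156 and 280 CPM in sham libraries, a log2 fold change of 0.20 ± 0.075 (p = 0.0136 by edgeR, not passing after adjustment). The highest Gfap value of all was that of sham replicate 1, and the F2 injured mice at 262 and 269 CPM came next. C4b, complement component 4, stood at 18.0, 24.1 and 53.3 CPM in injured and 13.1, 21.1 and 32.4 CPM in sham libraries (0.32 ± 0.13). The 3 injured mice at 42.7, 50.3 and 53.3 CPM lay above every other library, and the remaining 9 ran from 18.0 to 26.4 CPM, within the sham range. Vim, another filament of reactive astrocytes, was at 0.10 ± 0.084, and at 0.050 without injured replicate 8. Of the 7 measured complement genes 6 were higher and 1 lower (median 0.031). Without sham replicate 1 the split was 3 and 4 (median -0.0011), and without sham replicates 1 and 7 it was 5 and 2 (median 0.030). Tissue RNA cannot tell more cells of a type from more RNA per cell.

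Homeostatic microglia genes, which mark the surveying state, were higher in 17 of 20 members, with a median of 0.072. In 0 of them was the unadjusted p under 0.05. Cx3cr1, the fractalkine receptor, stood at 40.2, 52.8 and 78.2 CPM in injured and 43.1, 46.9 and 51.0 CPM in sham libraries (0.14 ± 0.075). Csf1r, the receptor that maintains microglia, was at 0.13 ± 0.077, Tmem119 at 0.15 ± 0.084 and the lectin gene Siglech at 0.14 ± 0.077. Without sham replicate 1 Cx3cr1 was at 0.071 and Siglech at 0.062, and without sham replicate 7 Csf1r was at 0.081. Cohort F2, with 1 sham mouse, had the largest list median, 0.33, against 0.04, -0.02 and 0.16 in F1, F3 and F4. Without sham replicate 1 the split was 11 higher and 9 lower, and without sham replicates 1 and 7 it was 12 and 8, with a median of 0.006. Disease-associated microglia and lysosome genes had 6 members higher and 8 lower, and 8 and 6 without both.

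Genes that glucocorticoid hormones induce were lower in 12 of 20 members, with a median of -0.057. Sgk1, a kinase gene induced by these hormones, stood at 42.2, 75.6 and 152 CPM in injured and 41.3, 98.1 and 184 CPM in sham libraries (-0.49 ± 0.23). Its difference was -1.87 in F2 and between -0.40 and 0.04 in the other cohorts. Nfkbia, the inhibitor of NF-kB, was at -0.22 ± 0.098, while Tsc22d3, a leucine zipper gene that these hormones induce, was at -0.19 ± 0.11. Cdkn1a, a cell cycle inhibitor, was at 0.01 ± 0.094. Without sham replicate 1 Sgk1 was at -0.26, Nfkbia at -0.12 and Tsc22d3 at -0.052. The list followed the same libraries: 11 members were higher and 9 lower without sham replicate 1 (median 0.013), 5 and 15 without sham replicate 7 (median -0.11), and 5 and 15 without both (median -0.033).

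**Figure D3:**
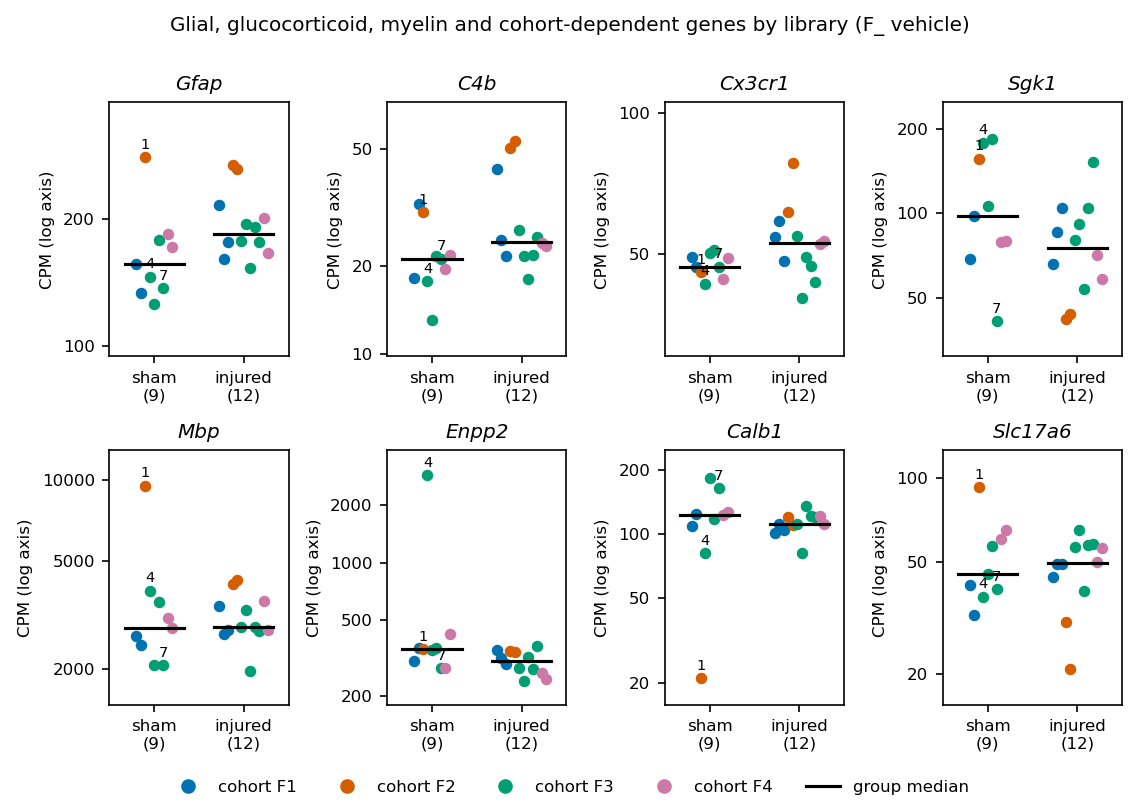
Level (CPM, log axis) of Gfap, C4b, Cx3cr1, Sgk1, Mbp, Enpp2, Calb1 and Slc17a6 in each sham and injured library, coloured by cohort; sham replicates 1, 4 and 7 carry their numbers and lines are group medians. Sham replicate 1 is the highest point for Gfap, Mbp and Slc17a6 and the lowest for Calb1, sham replicate 4 is the highest for Enpp2, and 3 injured libraries stand above the rest for C4b.

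Myelin and oligodendrocyte genes were lower in 26 of 27 members, with a median of -0.12, and the split moved with the sham libraries left out. Mbp, the major basic protein of myelin, was at 9504 CPM in sham replicate 1 and between 1962 and 4235 CPM in the other 20 libraries. The list mean there was 8.36 log2 CPM, and no other library exceeded 7.54. Within the cohorts the list median was -0.86 in F2 and 0.17, -0.12 and 0.05 in F1, F3 and F4. Without sham replicate 1 the split was 16 higher and 11 lower (median 0.011), and Mbp moved from -0.13 ± 0.14 to 0.05. Without sham replicate 7 the split was 0 and 27 (median -0.16), and without both it was 10 and 17 (median -0.036). Mobp was at -0.21 ± 0.16, Mog at -0.10 ± 0.12, Bcas1 at -0.19 ± 0.13 and Ugt8a at -0.17 ± 0.10. Without sham replicate 1 Mobp was at -0.067, Bcas1 at -0.046 and Ugt8a at -0.091. Enpp2, which oligodendrocytes also make, had the lowest fitted value of the list at -0.88 ± 0.36; sham replicate 4 stood at 2866 CPM against 242 to 423 CPM in the other 20 libraries, and without it the value was -0.17.

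Neuronal genes of the cortical layers were mixed. Among upper layer genes 8 were higher and 7 lower, with a median of 0.012. That split turned to 4 and 11 without sham replicate 1 (median -0.11) and to 4 and 11 without sham replicates 1 and 7 (median -0.081). Mdga1, a synaptic adhesion modulator, was at 0.31 ± 0.11 and higher in 4 of 4 cohorts, and the otoferlin gene Otof was at 0.44 ± 0.20, and at 0.27 without sham replicate 1. Fold changes in the upper layer list ran from -0.19 to 0.44. Among deep layer genes 11 were higher and 6 lower, and without sham replicates 1 and 7 the split was 9 and 8. Fold changes in the deep layer list ran from -0.63 to 0.29, so the largest was in a gene lower in injured mice. The unadjusted p of that gene by edgeR was not under 0.05. Crym, a thyroid hormone binding protein, was at 0.29 ± 0.11 and Rprm at 0.27 ± 0.10. Fezf2, which specifies subcortical projection neurons, was at 0.27 ± 0.14 (0.44 without sham replicate 1). Genes of inhibitory neurons were higher in 13 of 19 members, but Pvalb, the calcium buffer of fast-spiking interneurons, was at -0.26 ± 0.11, and Syt2, the calcium sensor of their terminals, at -0.20 ± 0.087. Pvalb ran from 54.2 to 110.154 CPM in injured and from 66.1 to 159 CPM in sham libraries. Without sham replicates 1 and 7 Pvalb was at -0.09, Syt2 at -0.21, and the inhibitory list had 6 members higher and 13 lower. The groups overlapped for each of these genes.

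Axonal and synaptic genes had small fold changes. Of 27 measured axonal cytoskeleton and injury biomarker genes 10 were higher and 17 lower, with a median of -0.014. The split turned to 15 and 12 without sham replicate 1 (median 0.012) and was 7 and 20 without sham replicate 7. Nefl, the light neurofilament, stood at 543, 619 and 711 CPM in injured and 578, 671 and 756 CPM in sham libraries, a log2 fold change of -0.099 ± 0.047 that was below 0 in 4 of 4 cohorts. Nefm, the medium neurofilament, was at -0.25 ± 0.098, and Sarm1, the NAD-cleaving enzyme that drives axon degeneration, at 0.18 ± 0.067. The amyloid precursor gene App was at -0.04 ± 0.063. Of synaptic vesicle genes 15 were higher and 8 lower, with Syn1 at 0.12 ± 0.055 and Snap25 at -0.14 ± 0.068, and of postsynaptic genes 22 were higher and 9 lower. Without sham replicates 1 and 7 both splits turned, the synaptic vesicle genes to 7 higher and 16 lower and the postsynaptic genes to 8 higher and 23 lower; without sham replicate 7 alone the synaptic vesicle split was 8 and 15, and without sham replicate 1 alone the postsynaptic split was 11 and 20.

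Immediate early and activity-induced genes, whose transcription follows neuronal firing, were higher in 16 of 25 members, with a median of 0.022. Without sham replicates 1 and 7 they were higher in 13 of 25, with a median of 0.061. Pcdh8 is counted in this list too, and its fold change of 0.57 was the largest there. Egr4 stood at 13.6, 25.5 and 37.5 CPM in injured and 10.6, 16.7 and 33.5 CPM in sham libraries (0.42 ± 0.16). It was higher in F1 and F3, at 0.80 and 0.64, and not in F2 and F4, at -0.20 and -0.05. Junb was at 0.35 ± 0.19, Fos at 0.16 ± 0.18, Egr1 at 0.065 ± 0.11, Arc at 0.02 ± 0.19 and Bdnf at -0.10 ± 0.087; the signs of Fos, Egr1 and Arc depended on the setting. The p38 cascade, the target of SB, had 15 members higher and 9 lower with a median of 0.003; its kinase genes Mapk14 and Mapk11 were at -0.01 ± 0.046 and -0.04 ± 0.11, and both signs turned under other settings.

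Housekeeping lists moved with the libraries that stood apart. Oxidative phosphorylation genes were lower in 38 of 40 members (median -0.053) with all 21 libraries and higher in 27 of 40 (median 0.038) without sham replicates 1 and 7. Cytosolic ribosomal protein genes were split 24 higher and 29 lower (median -0.006) with all libraries and 52 and 1 (median 0.12) without these, with Rpl13 at 0.16 ± 0.12 and at 0.37 ± 0.10. The Spearman correlation of the fold change with exon length across 9550 genes, which share their libraries and are not independent, was 0.043 with all libraries and -0.317 without these, so gene length moved with the ribosomal shift; its part in it was not tested. Heat shock and chaperone genes were lower in 18 of 22 members (median -0.070) with all libraries and in 20 of 22 (median -0.060) without these. The chaperone gene Bag3 was at -0.19 ± 0.093, the endoplasmic reticulum chaperone Hspa5 at -0.11 ± 0.071 and Dnaja1 at -0.099 ± 0.058, and each was lower in 4 of 4 cohorts.

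Genes that mark neighbouring tissue were also examined. Of 11 measured striatal genes 9 were lower (median -0.084), led by the sodium channel subunit Scn4b at -0.33 ± 0.13 and Ppp1r1b, the dopamine signalling protein DARPP-32, at -0.28 ± 0.14 (-0.17 without sham replicate 4). The list mean was 6.71 and 6.89 log2 CPM in both F1 sham libraries and 6.73 in injured replicate 8 of F1, and no other library exceeded 6.05. Within F1 the list median was -0.55. Without sham replicates 1 and 7 the split was 0 higher and 11 lower, with a median of -0.19. Perivascular and meningeal fibroblast genes were higher in 4 of 5 members, with a median of 0.13 and the collagen gene Col1a2 at 0.27 ± 0.13. The lowest list mean among the sham libraries was that of sham replicate 1, without which the list median was 0.072 and Col1a2 was at 0.14 (unadjusted p by edgeR 0.214, against 0.0493 with all libraries). The part of the striatal level in the other results was not tested.

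Other lists were also split. Circadian clock genes were higher in 7 and lower in 13 of 20 members (median -0.025). The split was 12 and 8 without sham replicate 1 (median 0.011), 6 and 14 without sham replicate 7, and 5 and 15 without both (median -0.042). The transcription factor gene Npas2 was at 0.12 ± 0.058 and Ciart, a repressor of the clock, at -0.17 ± 0.095. Cholesterol synthesis genes were higher in 12 and lower in 10 members, and in 10 and 12 without sham replicates 1 and 7, with the lanosterol synthase gene Lss at 0.08 ± 0.052 and Nsdhl at -0.14 ± 0.071. Ion channel genes were split 15 and 14, with the T-type calcium channel gene Cacna1h at 0.20 ± 0.10, and 8 and 21 without sham replicates 1 and 7. Sox9, an astrocyte transcription factor, was at 0.10 ± 0.065, the lysosomal progranulin gene Grn at 0.08 ± 0.045 and the cytochrome c gene Cycs at -0.12 ± 0.056.

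**Figure D4:**
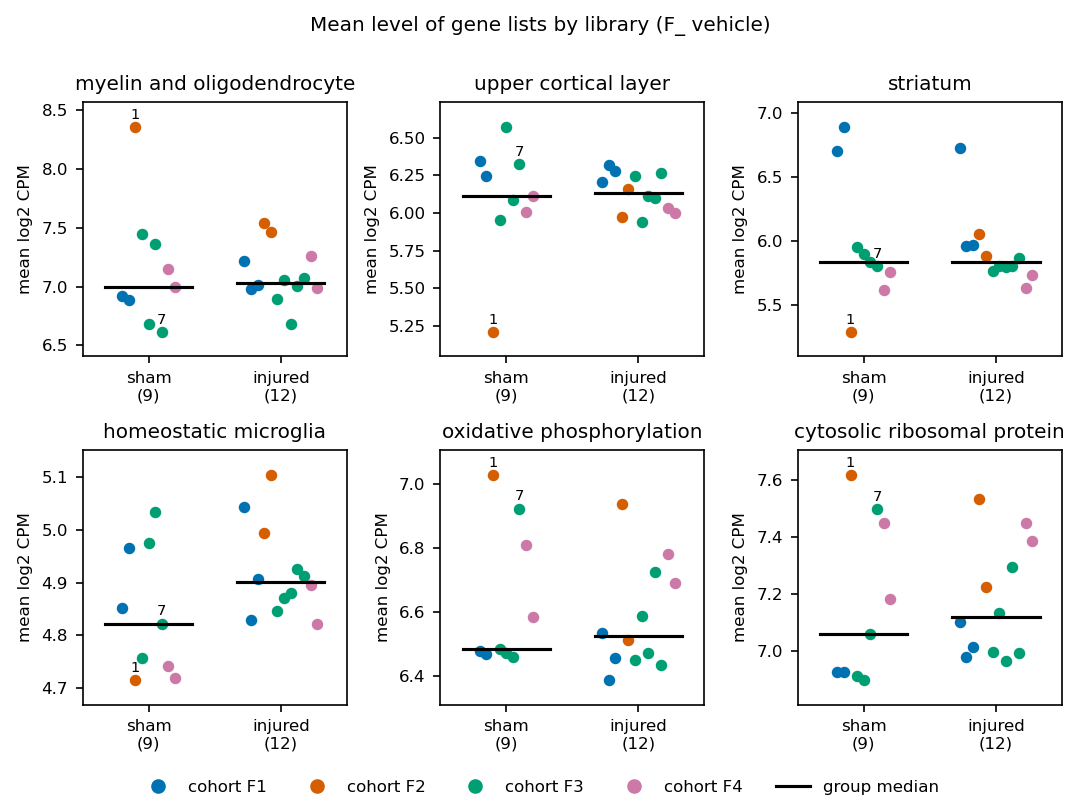
Mean log2 CPM of 6 gene lists in each sham and injured library, coloured by cohort, with group medians as lines and sham replicates 1 and 7 numbered. Sham replicate 1 is the highest for myelin, oxidative phosphorylation and ribosomal genes and the lowest for upper layer, striatal and microglia genes, and 3 libraries of cohort F1 stand above the rest for striatal genes.

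**Figure D5:**
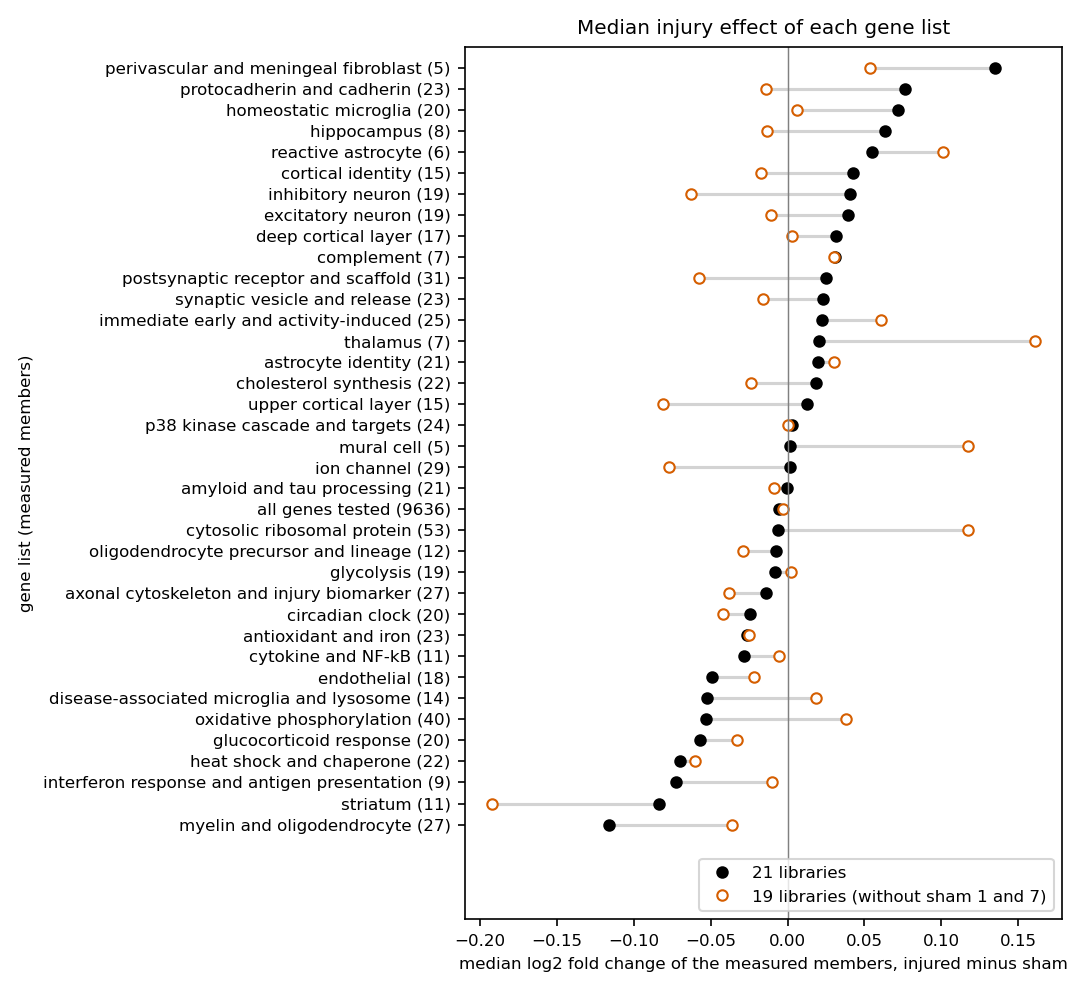
Median log2 fold change, injured minus sham, of the measured members of each gene list with 5 or more measured members, with all 21 libraries (filled) and without sham replicates 1 and 7 (open); the number of members is in brackets. The heat shock, p38, complement and antioxidant medians moved little, whereas the thalamic, ribosomal, mural cell, striatal and inhibitory neuron medians moved furthest, and several, the inhibitory neuron, ribosomal, oxidative phosphorylation and postsynaptic medians among them, changed sign.

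The injury effect differed between cohorts in 30 genes (0.311%) by edgeR's quasi-likelihood test of the cohort by injury terms, at an adjusted p under 0.05, and 755 (7.84%) had an unadjusted one. In all 30 the library of sham replicate 1 lay outside the other 20, below them in 24 and above them in 6, and the F2 effect compares 2 injured mice with that library alone. Calb1 stood at 21.2 CPM there and between 81.7 and 183 CPM elsewhere, so that its fold change was 2.45 in F2 and -0.15, -0.26 and -0.10 in F1, F3 and F4. Slc17a6, a glutamate transporter of thalamic and other subcortical neurons, went the other way, with 92.5 CPM there and 20.8 to 65.0 CPM elsewhere. These genes were chosen after their values were seen. Without that library F2 has no sham mouse, the test covers F1, F3 and F4, and 0 genes passed. The count also moved by over 1.5 times on leaving out each of 15 other libraries, from 2 without injured replicate 10 to 66 without sham replicate 5; the 5 exceptions were injured replicates 2, 3 and 4 and sham replicates 4 and 6.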

How the data were processed

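The authors deposited raw read counts per gene in 1 table; the submitters' processing notes name the tools STAR, featureCounts and DESeq2 and the build GRCm39/mm39, without versions or settings. Per the labels' protocols, polyadenylated RNA was made into directional libraries. The smallest count in the table is 101, so genes of low count are not in it, and totals over the listed genes are not the full depth. Columns were matched to samples by library name (0 left unmatched).

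The tests used edgeR 4.0.16 in R 4.3.3 (TMM, filterByExpr, which removed 0 genes, and the robust quasi-likelihood test, two-sided, Benjamini-Hochberg over 9636 genes at 0.05). The model held the cohort and injury (5 coefficients, 16 residual degrees of freedom; common dispersion 0.0176). Further fits tested cohort by injury terms, the difference between the sexes over 34 vehicle libraries and injury in female SB mice over 35 female libraries. Fold changes are log2, injured minus sham; list means use a prior count of 2. Lists are described by counts and medians, without a test. DESeq2 1.42.0 and limma 3.58.1 served as alternatives, and scripts were tested on simulated data. Between libraries of a group, chi-square per degree of freedom was at least 9.83, so none was counted as a duplicate. Replicate numbers were not used to pair mice. Exon lengths came from GENCODE annotation on an earlier build and were matched by symbol, so no coordinates are given.

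Genes were named by a rule: the 12 of smallest p per direction, up to 3 of smallest p per list, and a panel of 21 genes. Some genes that it names are not reported here. The members and lists were chosen with earlier results of these data known. Of 39 lists, 37 had a measured member.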

Additional observations from a re-analysis of the deposited data

Results flagged for a closer look

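Dixon's test was applied to the 9 sham libraries for 80 named genes, 37 list means and the total count, and chance alone flags about 1 in 20 groups. The items overlap and share the same 9 libraries, and many genes were picked by their values there. The number marked therefore cannot be set against that rate. The test marked 14 of 118, 11 of them through sham replicate 1. That library was the high one for Gfap (280.1 CPM, next 185), Ugt8a (119 CPM, next 77.8), Mobp (3411 CPM, next 1839), Mbp (9504 CPM, next 3878), Mog (152 CPM, next 93.2) and Bcas1 (771 CPM, next 358). It was the low one for C1ql3 (33.8 CPM, next 61.0), a synaptic organiser gene. Among list means it was high for myelin and oligodendrocyte genes (8.36 log2 CPM, next 7.45) and for antioxidant and iron genes (6.71, next 6.56). It was low for upper cortical layer genes (5.21, next 5.95) and for perivascular and meningeal fibroblast genes (4.83, next 5.58). Sham replicate 4 was the high one for Enpp2 (2866 CPM, next 423). Sham replicate 7 was the high one for B2m, the light chain of class I antigen-presenting molecules (110.1 CPM, next 87.9), and for the mean of interferon response and antigen presentation genes (4.93 log2 CPM, next 4.77). The injury effect differed between cohorts in 30 genes by a test of the difference itself. Groups of 12 were not examined in this way.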

How the results depend on the processing

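Of 80 named genes, 71 kept the sign of their fold change in every alternative. Many of these genes were picked by their p in the same libraries that most alternatives refit, so nothing is read from this count. The number of genes past the adjusted threshold for injury was 0 in each alternative except DESeq2 (2), and for the difference between the sexes it was 0 in each. The unadjusted count of 231 became 703 with limma voom, 125 with no cohort term, 453 without cohort F2 and 936 without sham replicates 1 and 7 (chosen after seeing the data), and ran from 167 to 448 with a library left out. The 30 genes of the cohort difference became 164 with DESeq2, 217 with limma voom, 15 at a mean count of 1000 or more and 0 without both libraries, and ran from 0 to 66 with a library left out. The cause was not tested, except that fewer genes or samples enter some fits. With the replicate block in place of the cohort, 0 genes passed and 41 had an unadjusted p under 0.05; the numbers pair no mice, since they shared a cohort in 3 of 9 pairs, correlations of deviations ran from -0.48 to 0.37, and 0 of 9 samples correlated best with their own number.

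Signs turned as follows. With limma voom Arc was at -0.045, Egr1 at -0.036 and Mapk11 at 0.053. With no cohort term Fos was at -0.037 and Arc at -0.025. With all 58 libraries Arc was at -0.049. With the replicate block Cdkn1a was at -0.10, Arc at -0.038 and Ciart at 0.00855. Without F1 Cdkn1a was at -0.13, Fos at -0.039 and Arc at -0.12. Without F2 Arc was at -0.00993, Mbp at 0.049 and Mog at 0.016. Without F3 Mapk14 was at 0.030 and Mapk11 at 0.11. Without sham replicates 1 and 7 Arc was at -0.087, Egr1 at -0.018 and Mapk11 at 0.071. With a library left out, Arc ran from -0.11 to 0.087 and Cdkn1a from -0.076 to 0.056, while Mbp ran from -0.19 to 0.046, Mog from -0.15 to 0.013, Mapk14 up to 0.0043 and Mapk11 from -0.077 to 0.090. Genes of low count are not in the table, and the interval of each fold change limits what it can show.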
